A study of Mus musculus with 2 samples.

Results

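The AP-1 genes encode the basic leucine zipper (bZIP) proteins that pair through their zippers and bind DNA as dimers. The 10 genes examined were 4 of the Fos subfamily (Fos, Fosb, Fosl1 and Fosl2), 3 of the Jun subfamily (Jun, Junb and Jund) and 3 grouped as the Batf subfamily (Batf, Batf3 and Atf3), of 21938 protein-coding genes in GENCODE M21 on the mouse genome GRCm38. They were chosen by name and family. For each gene, CG methylation was read at the gene start, over the gene body, and in 200 bp bins of the gene and the 50 kb on each side of it.

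Jun proteins can pair with each other or with Fos proteins, while Fos proteins need a Jun-type partner. Batf and Batf3 lack a transactivation domain, and Atf3 is a stress-induced factor that can repress its targets. Fos, Fosb, Jun and Junb are immediate early genes, switched on within minutes of a stimulus from starts that lie in CpG islands. In bone, Fos is required for osteoclast formation, Fosl1 for the bone matrix that osteoblasts make, Fosl2 for osteoblast differentiation, and Junb for osteoblast growth. TET proteins oxidise 5-methylcytosine (5mC) to 5-hydroxymethylcytosine (5hmC) and further forms, a route by which methylation is removed from CpGs.

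The cells were primary osteoblasts isolated from calvaria of 3-day-old C57BL/6 mice and cultured for 3 days. The WT library came from wild-type mice, and the TCKO library from mice in which Prx1-Cre, active in limb bud and part of the skull mesenchyme, deleted floxed Tet1, Tet2 and Tet3. Whether the WT animals carried floxed alleles, and how many animals were pooled, is not given in the sources used here. Each genotype had 1 library, so every test compares the 2 libraries, and none of the differences has a replicate check.

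The methylation level of a region is the share of methylated calls among all calls over its CG cytosines, and a difference between levels is in percentage points, TCKO minus WT. Bisulfite sequencing does not tell 5mC from 5hmC, and a level over many cells does not tell a change in every cell from a change in the mix of cells. On nuclear chromosomes 261062118 calls were made in WT and 223581206 in TCKO, a ratio of 0.856, and the pooled level was 70.2% and 76.3%. In each targeted gene the 2 kb window with the lowest ratio of TCKO to WT calls was taken, so a fall was built in. There calls went from 574 to 42 in Tet1, from 101 to 10 in Tet2 and from 157 to 19 in Tet3. Among autosomal windows with at least 60 WT calls, 0.0217%, 0.0284% and 0.0344% had a ratio as low, in the same order. Within 500 bp of their starts, the 8 osteoblast markers ranged from 1.41% (Col1a1) to 71.8% (Bglap) in WT, with a median of 26.3%, and from 4.29% to 92.3% in TCKO, with a median of 40.7%. The 4 blood and immune markers lay between 70.8% and 86.4% in WT, and the 3 chondrocyte markers between 0% and 3.87%. All intervals are 95% intervals, by the Wilson method for a level and the Newcombe method for a difference, and cover counting error only.

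The sequences below show island starts with no methylated call in either library and stretches further off that were higher in TCKO. Both kinds were picked by their values, so the contrast between them is an illustration and not a result. It does not hold for every gene of the group. The first 2 are the 250 bases before the RefSeq starts of Fos and Jun (GRCm38), read along the gene, with each CpG in capitals. The Fos stretch is chr12:85473640-85473889 on the plus strand and the Jun stretch chr4:95052223-95052472 on the minus strand.

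Fos upstream: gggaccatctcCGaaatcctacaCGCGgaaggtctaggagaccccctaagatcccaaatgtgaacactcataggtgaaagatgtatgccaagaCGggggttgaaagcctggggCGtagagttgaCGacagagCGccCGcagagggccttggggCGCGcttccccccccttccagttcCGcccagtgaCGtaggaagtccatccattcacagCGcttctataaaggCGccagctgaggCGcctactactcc

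Jun upstream: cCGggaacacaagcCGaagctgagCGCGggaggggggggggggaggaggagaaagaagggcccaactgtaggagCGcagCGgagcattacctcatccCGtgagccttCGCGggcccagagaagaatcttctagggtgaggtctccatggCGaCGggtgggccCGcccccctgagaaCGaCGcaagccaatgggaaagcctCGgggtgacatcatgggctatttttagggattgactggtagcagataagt

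Each held 15 CpGs. For Jun no call was methylated, of 31 in WT and 43 in TCKO. For Fos none was methylated of 59 in WT, and TCKO had 1 call. The next 5 are gaining bins, defined further on, printed on the plus strand with CpGs in capitals. They are the bin downstream of Fos with the smallest adjusted p, the deeper of a pair downstream of Jun, a bin in Fosl2, the bin past the end of Fosl2, and the bin nearest to the Batf3 start. The first pair was chosen after the values were seen.

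Fos, chr12:85497401-85497600: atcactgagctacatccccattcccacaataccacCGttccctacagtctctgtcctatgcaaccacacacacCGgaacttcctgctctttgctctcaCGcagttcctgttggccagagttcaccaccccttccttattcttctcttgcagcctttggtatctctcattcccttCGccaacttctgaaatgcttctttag

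Jun, chr4:95026201-95026400: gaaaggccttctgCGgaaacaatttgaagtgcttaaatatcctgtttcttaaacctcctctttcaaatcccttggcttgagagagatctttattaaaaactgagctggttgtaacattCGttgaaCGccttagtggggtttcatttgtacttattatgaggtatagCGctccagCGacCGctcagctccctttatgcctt

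Fosl2, chr5:32139401-32139600: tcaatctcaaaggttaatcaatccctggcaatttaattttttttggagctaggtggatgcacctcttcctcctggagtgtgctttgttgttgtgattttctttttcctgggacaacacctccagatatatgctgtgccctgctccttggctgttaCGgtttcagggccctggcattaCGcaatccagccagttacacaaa

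Fosl2, chr5:32160801-32161000: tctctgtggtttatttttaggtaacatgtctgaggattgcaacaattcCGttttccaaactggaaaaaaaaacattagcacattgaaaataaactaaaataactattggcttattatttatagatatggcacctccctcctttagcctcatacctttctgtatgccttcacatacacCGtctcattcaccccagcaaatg

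Batf3, chr1:191092601-191092800: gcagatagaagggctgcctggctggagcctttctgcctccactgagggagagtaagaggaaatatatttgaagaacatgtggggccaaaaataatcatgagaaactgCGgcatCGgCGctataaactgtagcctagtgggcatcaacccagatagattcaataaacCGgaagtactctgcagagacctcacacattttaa

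These bins are CpG-poor beside the upstream stretches, with 4, 6, 2, 2 and 4 CpGs in 200 bases. In WT their levels were 3.70%, 18.6%, 4.76%, 5.56% and 16.3%, and in TCKO 63.6%, 90.3%, 78.1%, 81.5% and 80.6%, in the order printed.

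At the gene starts, the Jun genes and, apart from Fosl1, the Fos genes were low in both libraries, while Fosl1 and the Batf genes were intermediate to high. Within 2 kb of the GENCODE gene start, 5 of the 10 genes had a higher level in TCKO (Fosb, Jun, Jund, Batf3 and Atf3), none had a lower one and 5 did not pass the test. The test was the 2-sided Fisher exact test on calls, Benjamini-Hochberg adjusted over all protein-coding genes with at least 20 calls in each library. Of the 21883 genes tested, 37.9% were higher and 2.88% lower in TCKO. With 10 genes, 5 is near that background. The median difference of the 10 was 4.08 points and that of all genes tested 4.71 points. Within 500 bp, only Batf3 of the 10 passed the test. The median difference of all genes tested there was 0.918 points, and the share of them called was not counted.

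**Figure D1:**
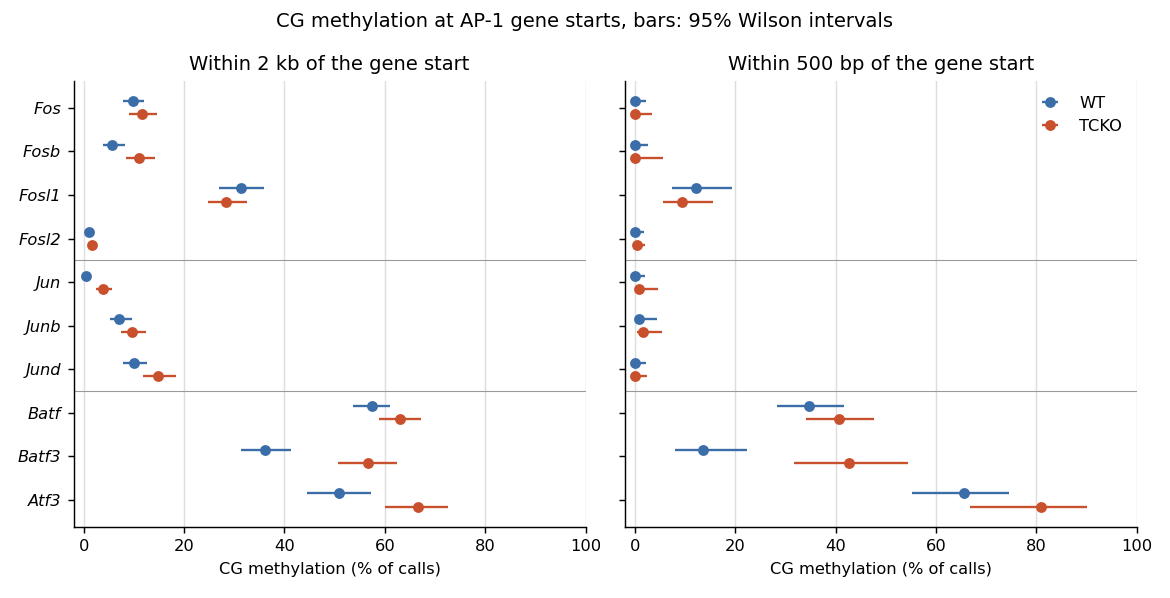
Each row is a gene, and the x axis gives the level in % of calls in WT (blue) and TCKO (orange) within 2 kb (left) and 500 bp (right) of the gene start, with 95% Wilson intervals. Fos, Fosb, Fosl2, Jun, Junb and Jund sit at 0% to 1.54% in both libraries within 500 bp, and Fosl1, Batf, Batf3 and Atf3 sit higher, with Fosl1 (12.1%) close to Batf3 (13.6%) in WT.

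Fos, the founding Fos gene (chromosome 12, start 85473890, plus strand), had a level of 9.74% (832 calls) in WT and 11.5% (520 calls) in TCKO within 2 kb. The difference was 1.80 points (interval -1.51 to 5.35) and did not pass the test. Within 500 bp all 165 WT calls and all 109 TCKO calls were unmethylated, with upper interval limits of 2.28% and 3.40%. Methylation within 2 kb lay mostly in the last kilobase, downstream, at 34.2% in WT and 30.7% in TCKO.

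Fosb, which encodes a close relative of Fos (chromosome 7, start 19310051, minus strand), had 5.64% in WT and 10.96% in TCKO within 2 kb. That difference of 5.32 points passed the test (adjusted p = 0.0153, Fisher exact test). Within 500 bp both libraries were at 0%, with 144 and 64 calls and upper interval limits of 2.60% and 5.66%. The methylated calls lay mostly 1 to 2 kb upstream, at 46.5% and 53.2%, where WT had 43 calls and TCKO 79. The mean over cytosines covered in both libraries differed by only 0.266 points, against 5.32 for pooled calls.

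Fosl1, which encodes Fra-1 (chromosome 19, start 5447547, plus strand), had 31.3% in WT and 28.4% in TCKO within 2 kb and did not pass the test. Its first 500 bp were unmethylated in both libraries, with 51 WT and 107 TCKO calls. The 500 bp before the start had 21.5% in WT (65 calls) and 41.9% in TCKO (31 calls). With a window from 1 kb upstream to 100 bp downstream, the difference was 31.2 points and passed the test (adjusted p = 0.00204, Fisher exact test), so its direction depended on the window.

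Fosl2, which encodes Fra-2 (chromosome 5, start 32135801, plus strand), was at 0.975% (1026 calls) and 1.58% (1015 calls) within 2 kb, with a difference of 0.60 points (interval -0.41 to 1.67). It did not pass the test there. Its exon 1 was at 0% and 0.329%. Centred on the RefSeq start 671 bp downstream, the difference within 2 kb was 1.93 points and passed the test (adjusted p = 0.00190, Fisher exact test).

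Jun, the partner of Fos in the classical AP-1 dimer (chromosome 4, start 95052222, minus strand), was the least methylated of the 10 in WT within 2 kb, at 0.398% (753 calls), and was at 3.74% (561 calls) in TCKO. The difference of 3.34 points passed the test (adjusted p = 5.4e-05, Fisher exact test). It lay 1 to 2 kb upstream, where 2 of 147 WT calls (1.36%) and 17 of 108 TCKO calls (15.7%) were methylated. From 1 kb to 500 bp upstream none of 110 WT and 88 TCKO calls was methylated. As a mean of cytosine levels the Jun difference within 2 kb was 1.01 points.

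Junb, often an antagonist of Jun (chromosome 8, start 84978718, minus strand), had 7.12% and 9.66% within 2 kb and did not pass the test. Its single coding exon was at 0% in both libraries.

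Jund, the most steadily expressed Jun gene (chromosome 8, start 70698949, plus strand), had 9.97% in WT and 14.8% in TCKO. The 4.82 points passed the test (adjusted p = 0.0446, Fisher exact test) and lay upstream, at 60.3% and 79.0% between 2 and 1 kb before the start. Within 500 bp none of 179 WT and 156 TCKO calls was methylated. The first 500 bp of the gene had no WT call and 57 TCKO calls, so WT was not measured there.

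**Figure D2:**
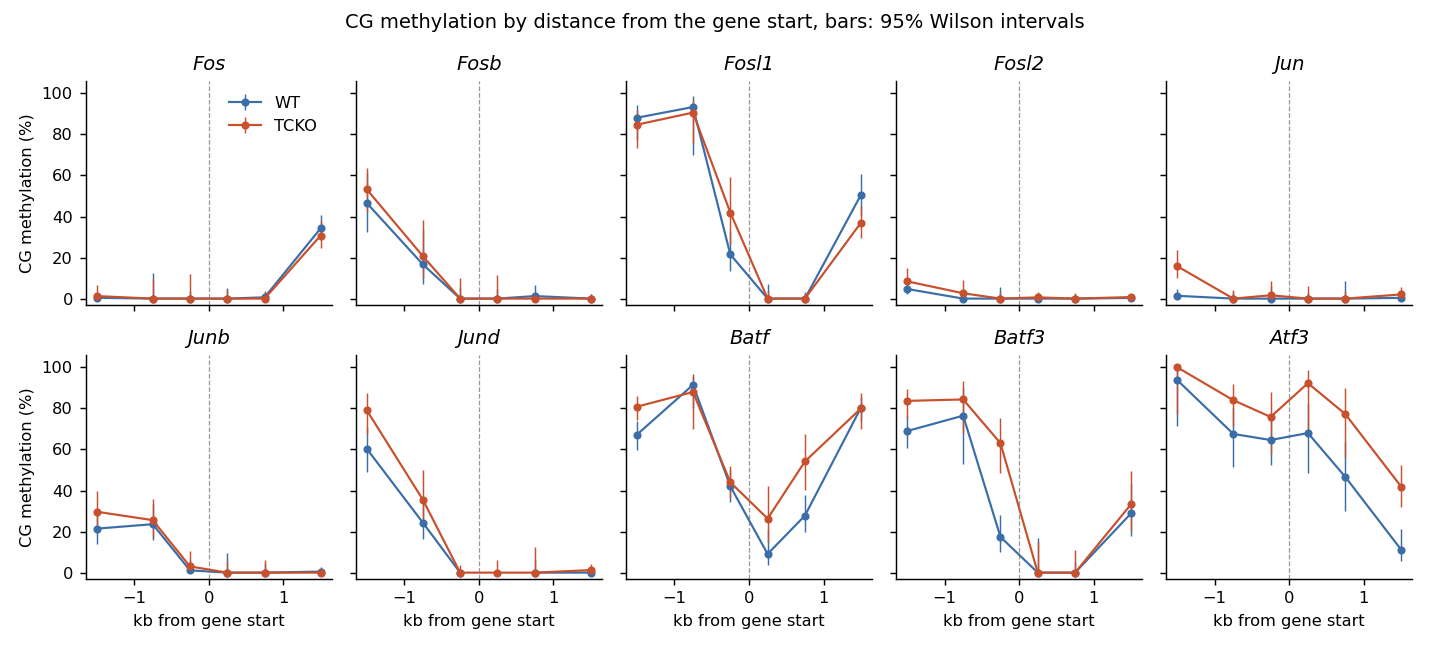
Each panel is a gene, with the level in % of calls over 6 windows from 2 kb upstream to 2 kb downstream of the start (x axis, kb), in WT (blue) and TCKO (orange), with 95% Wilson intervals. The Fos and Jun genes have a floor at or near 0% around the start in both libraries, and Jun differs at its left edge (1.36% and 15.7%).

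At their GENCODE starts, the Batf genes were higher in level than the Fos and Jun genes other than Fosl1. Within 2 kb Fosl1 was at 31.3% in WT, close to Batf3 at 36.1%. Batf (chromosome 12, start 85686669, plus strand), which encodes a bZIP factor of lymphocytes, had 57.4% (666 calls) in WT and 63.1% (512 calls) in TCKO within 2 kb. The 5.73 points did not pass the test (adjusted p = 0.102, Fisher exact test). The lowest window was the first 500 bp, with 9.09% of 44 calls in WT and 26.3% of 38 in TCKO, and the next 500 bp went from 27.8% to 54.2%.

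Batf3, known for its part in dendritic cell development (chromosome 1, start 191097847, plus strand), had 36.1% in WT and 56.6% in TCKO within 2 kb, the largest difference of the 10 by pooled calls. The 20.5 points (interval 12.6 to 28.1) passed the test (adjusted p = 5.4e-06, Fisher exact test) and exceeded those of 96.6% of all genes tested. The difference was 29.0 points within 500 bp (13.6% and 42.6%, adjusted p = 0.00205, Fisher exact test). It lay before the start: 17.4% of 69 calls in WT and 63.0% of 46 in TCKO were methylated in the 500 bp upstream, and none of 19 and 22 in the 500 bp downstream. As a mean of cytosine levels the Batf3 difference within 2 kb was 9.76 points, under those of Atf3 (25.04) and Batf (10.7). The RefSeq start of Batf3 is 567 bp downstream of the GENCODE one, and within 500 bp of it none of 100 WT and 59 TCKO calls was methylated. Within 2 kb of that RefSeq start the levels were 32.6% in WT and 53.8% in TCKO. This difference of 21.1 points passed the test (adjusted p = 4.8e-07, Fisher exact test).

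Atf3 (chromosome 1, minus strand) has distant starts. The GENCODE gene start at 191218039 had 50.8% (236 calls) in WT and 66.7% (213 calls) in TCKO within 2 kb, which passed the test (adjusted p = 0.00314, Fisher exact test). The RefSeq start at 191183333, which lies 34706 bp further along the gene, was different. Within 500 bp of that start none of 99 WT calls and 1 of 195 TCKO calls (0.513%) was methylated, and within 2 kb the levels were 19.5% and 16.6%. Centred there, the Atf3 difference was -2.90 points and did not pass the test. For Batf3 and Atf3, then, the 500 bp on each side of the RefSeq start had no or 1 methylated call, and the difference lay at the outer start. Jund went the other way: its RefSeq start is 1210 bp from the GENCODE start, on the CpG-poor side, and had 52.8% of 108 calls in WT and 67.1% of 82 in TCKO within 500 bp. Centred there, the Jund difference within 2 kb was 4.12 points and did not pass the test (adjusted p = 0.297, Fisher exact test).

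At the GENCODE starts, CpG content set Batf and Atf3 apart, and not Batf3. Within 500 bp of the gene start, Jund held 102 CpGs, Fosl2 96, Jun 78, Fosb 73, Fos and Junb 69 each, Batf3 60 and Fosl1 54, while Batf held 25 and Atf3 17. The observed over expected ratio was 0.636 or more in the first 8 and 0.340 and 0.248 in Batf and Atf3. For Atf3 and Jund this order depended on the start used. Counted as CG cytosines of both strands within 500 bp, Atf3 had 34 at its GENCODE start and 146 at its RefSeq start. Jund had 204 and 26. Among all 20704 genes tested within 500 bp, 27.5% were under 2% in both libraries, and 6 of the 10 AP-1 genes were.

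Pooled over the genes of a subfamily and within 2 kb, Fos genes went from 8.93% to 10.8%, Jun genes from 5.46% to 9.01% and Batf genes from 50.2% to 62.1%. All 10 went from 16.5% to 20.4%, and all protein-coding genes from 41.5% to 47.1%. These are descriptions, since the genes of a subfamily are not replicates. Centred on RefSeq starts, the Batf genes differed by 3.54 points in place of 11.96, and the Jun genes by 3.18. Of the Batf genes, Atf3 went from 15.8 to -2.90 points with the change of start. Batf went from 5.73 to 4.50 and Batf3 from 20.5 to 21.1. Between 2 and 1 kb upstream the differences of the single genes ran from -3.39 points in Fosl1 to 18.8 in Jund. Pooled levels of the 10 genes also move with the share of calls each gene has: Fos, at 0.407% and 1.23% there, had 246 calls in WT and 81 in TCKO. In the first 500 bp of the genes they had 3.51% and 3.65%, and all genes 19.8% and 22.0%.

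The length of the unmethylated stretch around each start was then followed bin by bin, until the first bin with at least 10 calls that reached 20%. Fosl2 had the longest stretch in WT, 7600 bp, and in TCKO its stretch was 2800 bp. Jun had 5000 and 4200 bp, Fos 3400 and 3600 bp, Junb 3400 bp in both, Jund 3000 and 2600 bp, and Fosb 3000 and 2800 bp. Fosl1 had 1600 bp in both, Batf3 1600 and 1153 bp, Batf 731 and 0 bp, and Atf3 had none at its outer start. The 0 bp of Batf in TCKO came from the bin of the start, which at 21.1% of 71 calls was just over the limit. Since 1 bin can end a stretch, the calls on either side of the new boundary were pooled. That choice used the values, so they are described without a test.

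In Fosl2, the 2800 bp that stayed under 20% in both libraries had 0.122% of 819 calls in WT and 0.450% of 889 in TCKO. The 2600 bp that follow, from position 1999 to 4599 in intron 1, had 2.13% of 282 calls in WT and 41.5% of 260 calls in TCKO, a difference of 39.4 points (interval 33.1 to 45.6). Of its 13 bins, 3 were deep enough for the bin test described further on. The upstream edge of Fosl2, 2200 bp long, went from 4.17% to 9.43%. The boundary of Fosl2 differed mainly on the gene side.

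In Jun, the shared core of 4200 bp had 0.340% of 882 calls in WT and 2.18% of 689 in TCKO. The 200 bp before it went from 2.63% to 31.4% and in the 600 bp after it 1 of 15 and 7 of 14 calls were methylated. In Batf3, the 447 bp upstream of the start went from 17.4% to 63.0%, while the core of 1153 bp had no methylated call of 100 in WT or 59 in TCKO. In Batf, the 731 bp after the start went from 9.65% of 114 calls to 29.5% of 105. Fos, Fosb, Fosl1, Junb and Jund had core levels between 0% and 1.41% in both libraries.

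**Figure D3:**
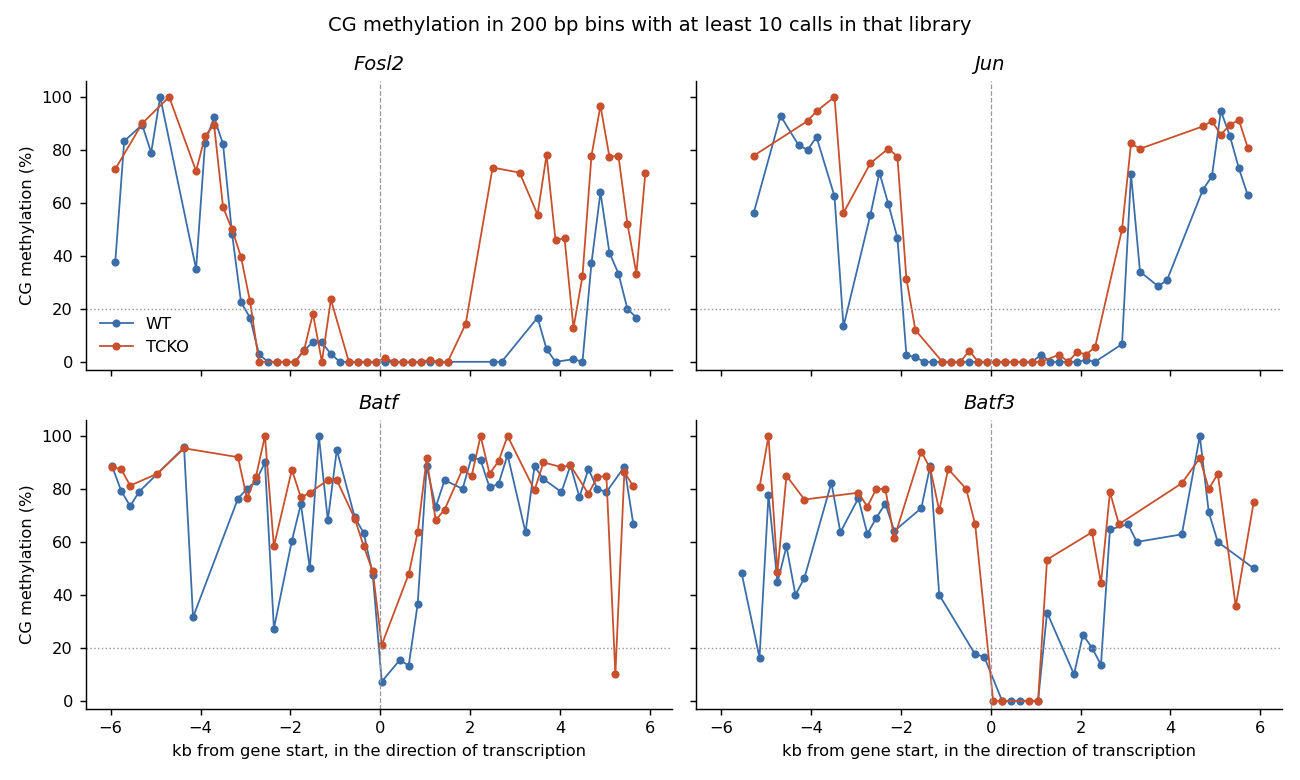
Each panel plots the level in % of calls in 200 bp bins with at least 10 calls in that library against distance from the start (x axis, kb), in WT (blue) and TCKO (orange), and the dotted line marks 20%. In Fosl2 the WT bins stay under 20% to 4599 bp while the TCKO bins rise after 1999 bp. In Batf3 a difference lies just before the start, and the 1153 bp after it are unmethylated in both libraries. Some Batf3 bins further downstream are also higher in TCKO.

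Over the gene bodies, 5 genes were higher in TCKO (Fosl2, Jun, Batf, Batf3 and Atf3), Fosl1 was lower, and Fos, Fosb, Junb and Jund did not pass the test. Of the 21625 genes tested, 64.4% were higher and 2.79% lower. With 10 genes, 5 is near that background. The median difference was 4.48 points for the 10 genes and 5.66 for all genes.

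The Batf3 body went from 58.0% to 71.7% (adjusted p = 2.7e-08, Fisher exact test), and its intron 2 went from 71.0% to 81.5%. The Batf body went from 68.6% to 78.6% (adjusted p = 2.3e-14, Fisher exact test), with 68.0% and 78.9% in intron 2. The Fosl2 body went from 38.6% to 46.9% (adjusted p = 1.7e-08, Fisher exact test), with intron 1 at 26.3% and 42.0%, intron 3 at 59.0% and 78.2%, and exon 4 at 67.1% and 74.8%. The long intron 1 of Fosl2 holds the stretch described above. By pooled calls Batf3 had the largest body difference, 13.7 points, but without the first 2 kb Fosl2 had 17.5 and Batf3 12.4. As a mean of cytosine levels Fosl2 had 13.0, Batf 9.54 and Batf3 8.71.

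Jun, which has a single exon, went from 6.25% to 11.5%, a difference of 5.30 points (adjusted p = 0.00235, Fisher exact test). Without the first 2 kb the Jun difference was larger, at 7.91 points, but did not pass (adjusted p = 0.0599, Fisher exact test). Atf3 went from 60.9% to 65.4% (adjusted p = 1.3e-06, Fisher exact test), with 65.2% and 75.1% in intron 2 of the transcript from the inner start. Intron 1 of that transcript had 56.2% of 598 calls and 52.8% of 422, a difference of -3.34 points (interval -9.52 to 2.84). Fos had 38.4% and 42.9%, Fosb 32.7% and 35.2%, Junb 17.0% and 18.5%, and Jund 0% of 270 calls and 0.930% of 215. These 4 bodies did not pass the test.

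The Fosl1 body was lower in TCKO (61.2% and 55.3%, adjusted p = 0.0135, Fisher exact test), but its parts went both ways. Whether the spread of calls over the gene accounts for the lower level was not tested. Exon 2 went from 61.5% to 68.6%, intron 2 from 78.3% to 84.6% and exon 4 from 76.9% to 78.3%. Intron 1 went from 26.4% to 21.4% and intron 3 from 88.2% to 87.2%, and the unmethylated first 500 bp had 51 WT and 107 TCKO calls. Without the 2 kb after the start the Fosl1 difference was 5.03 points higher in TCKO (adjusted p = 0.0378, Fisher exact test), and as a mean over cytosines covered in both libraries it was 2.53 points higher.

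Around the genes, a 200 bp bin entered the test if it had 4 or more CG cytosines and, in both libraries, 4 or more calls per cytosine on average. Such bins are called testable. A bin was gaining at an adjusted p below 0.05 (Fisher exact test, over all testable bins of the genome) and at least 40 points higher in TCKO. The 10 windows held 5474 bins, of which 1009 were testable and 25 were gaining (2.48%). Of all 2487317 testable bins of the genome, 2.92% were gaining, so the AP-1 windows were near the background. None was losing 40 points, where 0.0354% of the genome's bins were. Of 95 bins with 4 or more CG cytosines within 1 kb of a start, 5 were testable, so the islands themselves were seldom covered by this test.

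Gaining bins lay around 8 of the 10 genes. Batf3 had 6 of 103 testable bins, Jun 5 of 104, Fos 4 of 121, Fosl2 4 of 91, Fosb 2 of 75, Fosl1 2 of 100 and Batf 2 of 145, while Junb (102 bins) and Jund (62 bins) had none. Atf3 had 3 of 150, which it shares with Batf3, since the 2 genes are 61350 bp apart and their windows overlap by 38650 bp. The Fos genes had 12 of 387 (3.10%), the Jun genes 5 of 268 (1.87%) and the Batf genes 8 of 354 (2.26%). Over all genes the median share per window was 1.74%, with no gaining bin for 5421 of 21661 genes, and over the AP-1 genes the median was 2.33%.

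By distance, 0 of 19 testable bins within 2 kb of a start were gaining, 5 of 184 between 2 and 10 kb, and 17 of 706 between 10 and 50 kb. The other 3 lay further from the start, within 50 kb of the gene end. So few bins near the starts were testable that gains there could not be assessed. By annotation 13 were intergenic and 3 lay in an AP-1 gene. For 15 of them the AP-1 gene start was the nearest of any protein-coding gene. The median level was 22.2% in WT and 81.5% in TCKO, and the gains ranged from 40.05 to 78.0 points. In 23 of 25 the level was higher on both strands. At the threshold, a bin of Fosb at 40.05 points and one of Fosl2 at 40.5 were just inside, and one of Batf at 39.7 and one of Fos at 38.9 just outside.

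**Figure D4:**
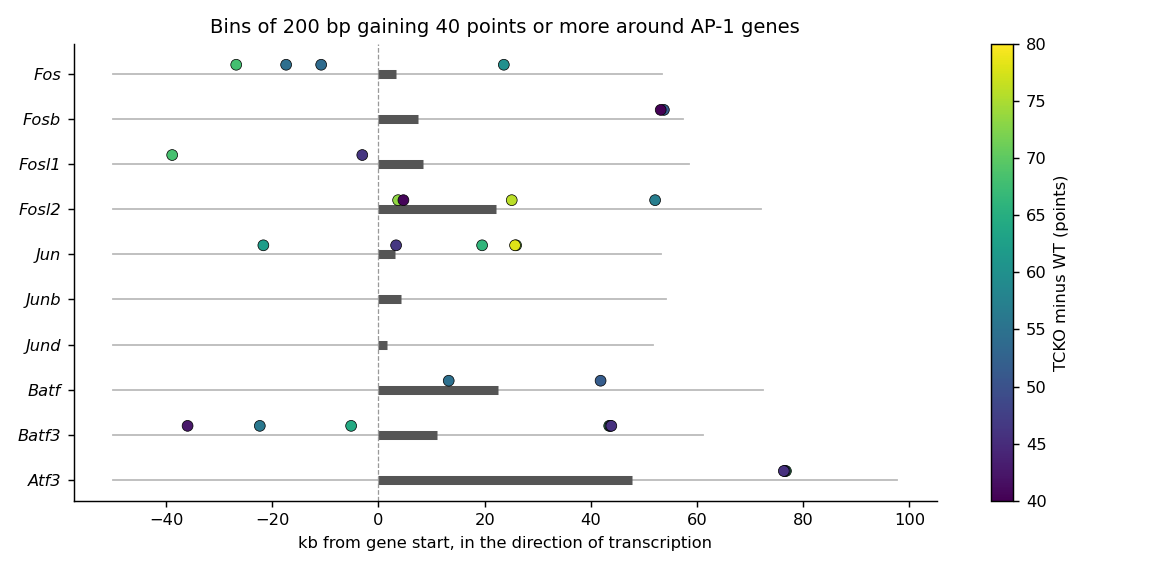
Each row is a gene drawn to scale from its start (x axis, kb along the direction of transcription), with the gene body in dark grey, the 50 kb flanks in light grey, and gaining bins as points coloured by their difference in points. No point lies within 2 kb of a start, Junb and Jund have none, and the 3 points of Atf3 are the ones shared with Batf3.

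Around Jun, the largest gain of all 25 was in the bin at 95026401 to 95026600, which lies 25722 bp downstream within Gm12694, a gene not annotated as protein-coding, at 14.8% of 27 calls in WT and 92.9% of 28 in TCKO. The bin beside it, 95026201 to 95026400, had 18.6% of 70 calls and 90.3% of 72 (adjusted p = 5.4e-16, Fisher exact test). The gain nearest to the Jun start, 3322 bp downstream and just past the gene's end, had 34.0% and 80.4%. A further bin lay upstream in Junos, a noncoding gene named for lying opposite Jun, at 28.6% and 90.7%. Gaining bins thus lay on both sides of Jun.

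Around Fos, 3 gaining bins lay upstream and 1 downstream, all intergenic. The upstream bin at 85447001 to 85447200 (position -26790) had the largest gain, with none of 26 calls methylated in WT and 17 of 25 (68.0%) in TCKO. The nearest, at position -10790, had 35.1% of 77 calls and 88.9% of 72. The downstream bin at 85497401 to 85497600, 23610 bp from the start, had 3.70% of 108 calls in WT and 63.6% of 118 in TCKO (adjusted p = 2.0e-20, Fisher exact test), the smallest adjusted p of the 25.

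The Fosl2 bin nearest to the start, 3699 bp downstream, lies in intron 1 of the coding transcript and in an exon of a noncoding Fosl2 transcript, and had 1 of 21 calls methylated in WT and 25 of 32 (78.1%) in TCKO. It belongs to the stretch of intron 1 described above. The largest Fosl2 gain lay past the gene's end, 25099 bp from the start, at 5.56% of 18 calls and 81.5% of 27. The 2 bins of Fosb were at the far end of its window, 53151 and 53751 bp downstream and nearer to Vasp. They had 44.7% and 84.8%, and 16.1% and 67.6%, and the farther one lies in an exon of Opa3. For Fosl1 the bin with the largest gain, at position -38847, had 18.2% and 86.4%, and the nearest, at position -3047, had 16 of 40 calls methylated in WT and 56 of 65 (86.2%) in TCKO.

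For Batf, the bin 13231 bp downstream, in an intron, was both the nearest and the largest gain, at 31.8% of 44 calls and 86.4% of 22. The nearest bin to Batf3, at position -5147, had 16.3% of 43 calls and 80.6% of 36 (adjusted p = 7.9e-07, Fisher exact test). The 3 adjoining bins between Batf3 and Atf3, from 191141201 to 191141800, had 0%, 44.1% and 44.3% in WT and 68.2%, 92.9% and 89.9% in TCKO. The first of them had the largest gain in the windows of both genes, and the last was the nearest to the Atf3 start.

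**Figure D5:**
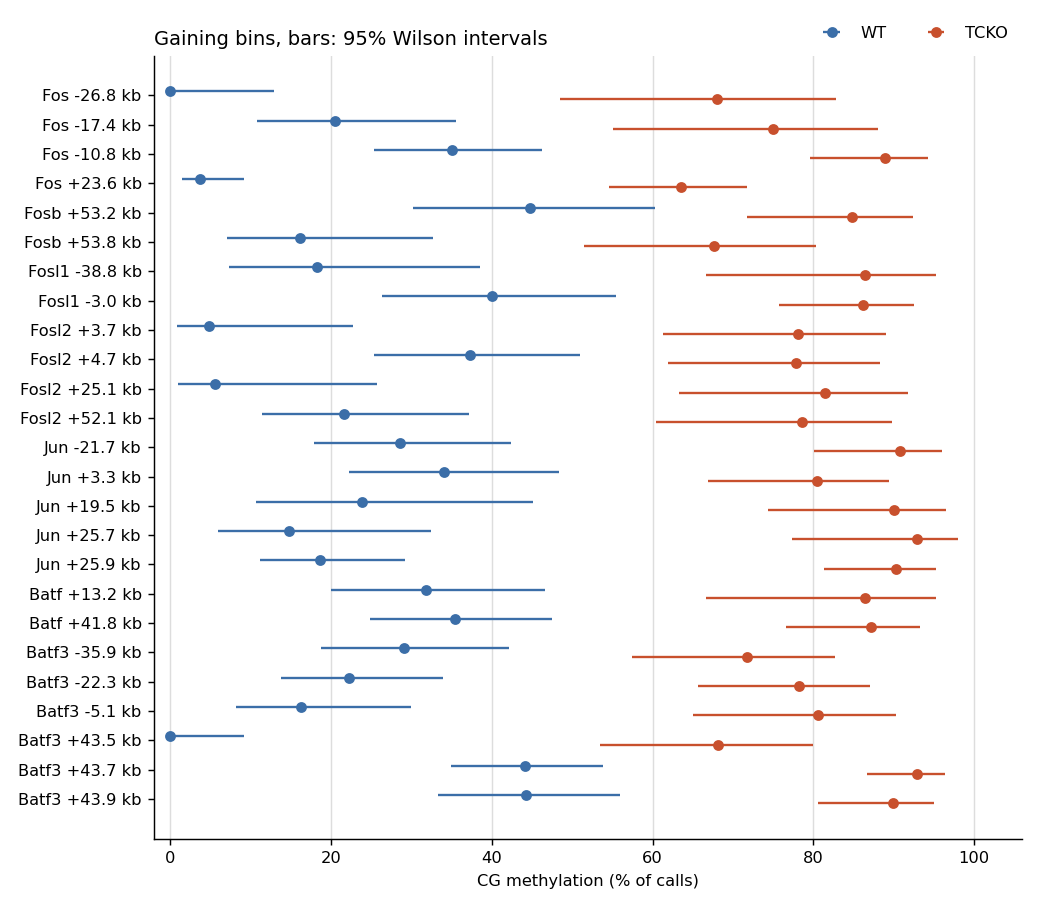
Each row is 1 of the 25 gaining bins, named by gene and distance from its start, with the level in % of calls (x axis) in WT (blue) and TCKO (orange) and 95% Wilson intervals. TCKO bins lie between 63.6% and 92.9%, and WT bins between 0% and 44.7%.

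Over the whole windows, pooled differences were 6.03, 7.34 and 8.48 points for Jun, Batf and Fos genes. Between 2 and 10 kb they were 9.91, 7.10 and 8.85 points in the same order. The Fos window was 12.7 points higher in TCKO between 10 and 50 kb from the start and 10.8 points higher between 2 and 10 kb. The Fosl2 window was 18.3 points higher between 2 and 10 kb (43.7% and 62.0%). Between 10 and 50 kb the 10 genes ran from 3.28 points in Junb to the 12.7 of Fos. Jund had 4.54 and Atf3 4.56, and below Fos came Batf with 9.32 and Jun with 8.51.

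The AP-1 site TGACTCA, searched on both strands, was in 0 of the 25 gaining bins, in 8.57% of all gaining bins of the genome and in 3.03% of all testable bins. The related site TGACGTCA was in 0 as well, and 0.236% of all gaining bins held it. The Runt site AACCACA was in 2 of 25 (9.03% of all gaining bins) and the E-box CAGCTG in 3 (9.77%). The CArG box, a run of A and T between CC and GG, was in 2 (1.27%), and the TEAD site CATTCCA in 0 (5.58%). In the 250 bases upstream of the RefSeq starts, which 9 of the 10 genes had in the table used, TGACTCA was in none (4.46% of 32851 promoters), and the shorter string TGACG was in 5 (Fos, Fosb, Junb, Batf and Atf3; 17.8% of promoters). A match is a string in these windows and nothing more.

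The other genes of the pathway were read at the start in the same way. Of 27 entries for other bZIP genes (26 symbols, with Ddit3 under 2 gene identifiers), 14 were higher, 2 lower and 11 did not pass the test, with a median difference of 6.15 points. Ddit3, which encodes the stress factor CHOP, went from 13.2% to 33.6%, and Mafk, a small Maf factor that lacks a transactivation domain, from 14.4% to 31.1%. Of 24 kinases and regulators upstream of AP-1, 12 were higher, 1 lower and 11 did not pass, with a median of 6.02 points. Map2k3, a kinase that activates p38, went from 26.9% to 39.9%, and Map2k7, a kinase that activates JNK, from 35.5% to 48.2%. Of 26 other immediate early genes, 10 were higher, 1 lower and 15 did not pass, with a median of 2.49 points. Ccn2 went from 15.6% to 33.3%, Zfp36 from 21.4% to 38.8% and Klf2 from 28.5% to 44.7%. Each of these lists stands beside the 37.9% of all genes that were higher.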

How the data were processed

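Whole-genome bisulfite sequencing of 1 WT and 1 TCKO osteoblast library was analysed. Per the paper's methods and the labels, the authors aligned reads to GRCm38 with BSMAP 2.74 and kept uniquely mapped reads. The deposited values are counts of methylated calls and of all calls per CG cytosine and strand, not normalized. Whether duplicate reads were removed is not given in the sources used here; PCR copies would narrow intervals without adding information. RNA-seq, ATAC-seq and other assays were not used here. The 10 genes, the comparison lists and the rules were chosen with earlier results of these data known.

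Calls were pooled within 2 kb of the GENCODE M21 gene start, from gene start to end, and in 200 bp bins, and compared by a 2-sided Fisher exact test. Its p-values were adjusted (Benjamini-Hochberg) over all genes with at least 20 calls in each library, or over all bins with 4 or more CG cytosines and 4 or more calls per cytosine on average. All 10 genes had enough calls for both gene tests. Genotypes were taken from the labels. The mean depth was 5.97 calls per reference CG cytosine in WT and 5.11 in TCKO, so regions were compared and not single sites. The study's bin size, CG minimum and 40-point difference were kept; its test is not named in the sources used here. Bins at a start were often too shallow for the bin test. All 10 genes are named, and of the bins the one with the largest gain and the one nearest to each start; lists are given with their 3 largest changes at the start, of which 1 is not reported here. Alternatives changed windows, strands, coverage limits, averaging, flanks, the bin grid and thresholds. Means over cytosines in gene bodies, RefSeq starts, and counting all reference cytosines in a bin were added after seeing the data. The code was tested on simulated data. Promoter sequences are from RefSeq on GRCm38. Computations used Python 3.11.15, numpy 2.4.6, pandas 2.3.3, scipy 1.17.1, numba 0.67.0 and matplotlib 3.10.9.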

Additional observations from a re-analysis of the deposited data

How the results depend on the processing

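The count of 5 genes higher at the start fell with narrower windows and fewer calls. It was 1 within 500 bp, 2 within 1 kb, 2 from 1 kb upstream to 100 bp downstream, 2 on the minus strand, and 3 over cytosines with at least 4 calls in each library. The share of all genes called at these settings was not counted. The fall can therefore not be read as particular to the AP-1 genes. Batf3 was called in every tested setting. The calls of Fosb, Jund and Atf3 were lost on the minus strand and with at least 4 calls per cytosine, that of Jun on the plus strand, and that of Jund at the RefSeq start. Batf passed on the plus strand (12.9 points, adjusted p = 0.0154, Fisher exact test) and with at least 4 calls per cytosine (11.1 points, adjusted p = 0.0212, Fisher exact test). Of the gene bodies, Jun lost its call without the first 2 kb, though its difference was then 7.91 points. Fos gained a call with at least 4 calls per cytosine (adjusted p = 0.0385, Fisher exact test).

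The sign of small start differences turned. That of Fos was -0.28 points within 1 kb and -2.12 as a mean of cytosine levels. That of Fosl1 was 2.66 within 1 kb, 31.2 from 1 kb upstream to 100 bp downstream, 0.664 on the plus strand and 0.507 as a mean of cytosine levels. That of Batf was -1.24 in the upstream window, that of Jund -1.67 on the minus strand, and that of Atf3 -2.90 at the RefSeq start. The Fos subfamily was at -0.16 on the minus strand and -0.19 over cytosines with at least 4 calls. In gene bodies, Fosl1 turned to 5.03 without the first 2 kb, 0.815 over cytosines with at least 4 calls and 2.53 as a mean of cytosine levels. Fosb was at -0.83 over cytosines with at least 4 calls and Fos at -3.16 as a mean of cytosine levels. The cause was not tested.

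The 25 gaining bins of 1009 testable ones became 44 at 30 points, for which no genome share was computed. With 25 kb flanks 16 of 604 were gaining (2.65%), and with 100 kb flanks 56 of 1742 (3.21%, where 1 bin was losing). With at least 1 call per cytosine it was 61 of 2761 (2.21%, against 2.65% of all testable bins). With at least 10 it was 6 of 170 (3.53%, against 1.94% of all). On a grid shifted by 100 bp there were 38. On the shifted grid 3.75% of testable bins around the genes were gaining, against 2.92% of all. Leaving out a library was not possible with 1 per genotype. No paired analysis was possible because each genotype had 1 library.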

Other observations

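The bodies of the other genes of the pathway were read in the same way as those of the AP-1 genes. Of 27 entries for other bZIP genes, 20 were higher in TCKO, 1 lower and 6 did not pass the Fisher exact test, and of 24 kinases and regulators 19 were higher, 2 lower and 3 did not pass. Of 26 other immediate early genes 12 were higher, 0 lower and 14 did not pass, beside 64.4% of all genes that were higher. Klf6, an immediate early zinc finger factor, went from 14.7% (1729 calls) to 45.1% (1480 calls), Klf2 from 18.9% to 45.9%, and Ccn2, a matrix signalling protein, from 30.1% to 54.9%. Maf, a bZIP factor with roles in bone and cartilage, went from 55.0% to 73.0%. Elk3, a ternary complex factor that acts at serum response elements such as the one of Fos, went from 62.2% (9233 calls) to 77.2% (7603 calls), and Mapk11 was lower, at 49.8% and 35.9%.

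A further 1851 bins of the AP-1 windows had at least 10 calls in each library but were too shallow or had too few CG cytosines for the bin test. Of these, 88 were 40 points or more higher in TCKO, without a test. Bins lower by as much, and the share over such bins of the genome, were not counted. The 88 can therefore not be read as further gains around these genes.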
